A study of Homo sapiens with 6 samples.

Results

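Osteoblast lineage genes were examined in U2OS cells, an established human osteosarcoma line. The genes are 10 transcription factors and bone matrix genes chosen by name: RUNX2, SP7, DLX5, ALPL, SPP1, SPARC, IBSP, BGLAP, MGP and POSTN. All 10 were found among the 60708 gene identifiers of each library, and 5 of them had enough counts for a test across genes. The series holds 6 RNA sequencing libraries, described as biological triplicates of wild-type U2OS cells. In the control group, 3 libraries came from cells kept in the solvent DMSO. In the treated group, called PARGi, 3 came from cells kept in 25 µM PDD00017273, and both treatments lasted 4 days. PDD00017273 blocks PARG, the glycohydrolase that degrades poly(ADP-ribose), a polymer attached to proteins at sites of DNA damage. Both groups are the same tumour line, so the data describe 1 line at 1 dose and 1 time and hold no normal osteoblasts.

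Osteoblasts arise from mesenchymal precursors. RUNX2 commits cells to the lineage, SP7 (osterix) acts downstream of it, and DLX5 is a homeobox factor of the same programme. Maturing osteoblasts secrete a collagen matrix with acidic glycoproteins such as osteopontin, bone sialoprotein and osteonectin, and alkaline phosphatase allows the matrix to mineralise by removing the inhibitor pyrophosphate. Osteocalcin, encoded by BGLAP, is a late marker of the mature cell. Osteosarcomas carry this programme to differing degrees.

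Promoter sequences are shown because RUNX2 is a DNA-binding factor and itself a member of the group, so its motif can be read beside the levels of the other members. RefSeq promoters on GRCh38.p14, each from 250 bases before to 50 bases after a start site, were matched for 7 of the 10 genes, and SP7, DLX5 and MGP had no entry. The hexamer ACCACA, a form of the core RUNX motif, was searched on both strands, and its matches are in capitals. Other forms of the motif, such as ACCGCA, were not searched. Of all 35116 promoters of 300 bases, 13.1% held at least 1 match. Among the 10 promoters of the 7 genes, 3 held a match: the distal promoter of RUNX2, that of SPP1 and that of BGLAP.
RUNX2 distal start, plus strand, chr6:45328080-45328379: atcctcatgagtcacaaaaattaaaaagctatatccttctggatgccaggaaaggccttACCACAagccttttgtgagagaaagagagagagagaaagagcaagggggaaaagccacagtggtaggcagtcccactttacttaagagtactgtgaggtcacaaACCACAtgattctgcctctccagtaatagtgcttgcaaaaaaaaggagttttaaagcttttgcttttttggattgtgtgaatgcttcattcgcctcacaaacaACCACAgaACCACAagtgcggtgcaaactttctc
RUNX2 proximal start, plus strand, chr6:45422025-45422324: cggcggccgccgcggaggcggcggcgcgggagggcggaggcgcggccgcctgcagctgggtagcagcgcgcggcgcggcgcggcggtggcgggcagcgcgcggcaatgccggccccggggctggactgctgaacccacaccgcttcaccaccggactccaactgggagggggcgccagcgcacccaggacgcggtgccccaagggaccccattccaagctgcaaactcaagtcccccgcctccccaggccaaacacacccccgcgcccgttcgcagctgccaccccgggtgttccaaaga
SPP1, plus strand, chr4:87975464-87975763: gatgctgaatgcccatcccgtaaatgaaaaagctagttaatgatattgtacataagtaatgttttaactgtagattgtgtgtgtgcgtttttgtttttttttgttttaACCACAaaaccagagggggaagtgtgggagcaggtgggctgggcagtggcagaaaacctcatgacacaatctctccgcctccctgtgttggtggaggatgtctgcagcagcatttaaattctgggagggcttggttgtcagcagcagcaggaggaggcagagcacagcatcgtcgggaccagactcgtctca
BGLAP, plus strand, chr1:156241934-156242233: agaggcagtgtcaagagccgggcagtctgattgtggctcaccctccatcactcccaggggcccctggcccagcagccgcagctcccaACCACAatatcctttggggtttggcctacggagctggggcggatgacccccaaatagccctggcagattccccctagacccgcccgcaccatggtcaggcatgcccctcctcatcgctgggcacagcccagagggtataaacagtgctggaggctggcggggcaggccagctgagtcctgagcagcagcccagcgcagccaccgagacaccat
SPARC, minus strand, chr5:151686866-151687165: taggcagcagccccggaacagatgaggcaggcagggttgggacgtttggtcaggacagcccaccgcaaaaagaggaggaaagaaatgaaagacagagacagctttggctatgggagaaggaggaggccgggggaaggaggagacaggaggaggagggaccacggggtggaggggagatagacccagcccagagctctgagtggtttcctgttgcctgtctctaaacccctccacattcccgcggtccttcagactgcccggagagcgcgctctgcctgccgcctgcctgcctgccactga
The distal RUNX2 promoter held 4 matches, their first bases at -191, -87, 16 and 24 from the start site. At least 4 matches were found in 0.0142% of all promoters. SPP1 held its match at -142 and BGLAP at -163, and all matches in the 3 promoters read ACCACA on the strand of the gene. The GC-rich proximal RUNX2 promoter, the SPARC promoter, the 3 ALPL promoters and those of IBSP and POSTN held no match to ACCACA in these windows. The printed SPARC sequence does hold ACCGCA, which was not counted, so a RUNX site of another form is not excluded in these promoters. A gene count sums transcripts from all start sites, so the distal and proximal RUNX2 transcripts cannot be told apart here.

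Library totals ran from 60286931 to 80605145 counts, and TMM scaling factors from 0.9953 to 1.007. No pair of libraries agreed within sampling noise, since a chi-square comparison of counts over genes gave at least 2.27 per degree of freedom. The quasi-likelihood test of edgeR was applied to the 20409 genes with enough counts, and 24.3% of them passed a Benjamini-Hochberg adjusted p of 0.05. In this background 13.2% of the tested genes were higher and 11.0% were lower in PARGi. Of the calls, 54.5% were higher, against 40.5% with upper-quartile scaling.

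At baseline the group spanned a very wide range of levels. Values with ± are means and SDs over the 3 libraries of a group. Levels between genes were compared as TMM-scaled counts-per-million (CPM) per kilobase of exon, the exon lengths being those of GENCODE 29. In the DMSO libraries SPARC stood first at 346.9 ± 3.55 CPM per kb (SD, n = 3), followed by RUNX2 at 10.2 ± 0.139. ALPL followed at 1.56 ± 0.0692 CPM per kb, SPP1 at 0.858 ± 0.0538 and MGP at 0.207 ± 0.0716. From SPARC down to MGP the ranges of neighbouring genes did not overlap. SPARC lay 34.1-fold above RUNX2 and 223-fold above ALPL. Among 34498 genes with a known length and at least 1 count in DMSO, SPARC had rank 59, RUNX2 rank 4722, ALPL rank 11596, SPP1 rank 13424 and MGP rank 18340.

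**Figure D1:**
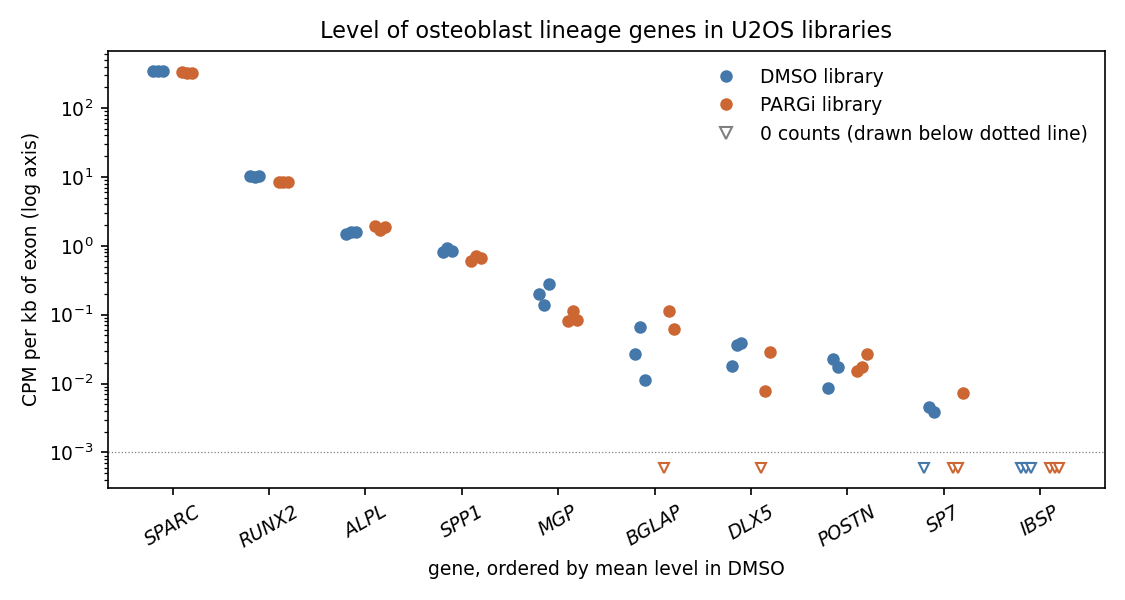
Level of each of the 10 genes in each library, in CPM per kilobase of exon on a log axis, with DMSO libraries in blue and PARGi libraries in orange. Open triangles below the dotted line are libraries with 0 counts. SPARC lies 34.1-fold above RUNX2 in DMSO, and IBSP has 0 counts in all 6 libraries.

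The other 5 genes were at or near the limit of detection. BGLAP was at 0.0346 ± 0.0282, DLX5 at 0.0308 ± 0.0111 and POSTN at 0.0163 ± 0.00721 CPM per kb in DMSO (SD, n = 3). The range of DLX5 overlapped those of BGLAP and POSTN. SP7 was at 0.00284 ± 0.00248, and its range did not overlap that of POSTN. IBSP, the bone sialoprotein gene, had 0 counts in all 6 libraries. A count of 0 allows up to 3 counts, which is between 0.0372 and 0.0498 CPM in single libraries and 0.00721 CPM over all 6. SP7 had 4 counts over all libraries together. Against the label of osteosarcoma cells, the early factor RUNX2, the phosphatase gene ALPL and the matrix genes SPARC, SPP1 and MGP were thus detected. The factors SP7 and DLX5, the mature osteoblast genes IBSP and BGLAP and the matrix gene POSTN were at or near 0. The count of BGLAP is uncertain, as described below.

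Comparing PARGi with DMSO asked whether the inhibitor changed these transcripts. RUNX2, SPARC, SPP1 and MGP fell and ALPL rose, so 5 of the 5 tested genes passed the threshold, 1 higher and 4 lower, against 24.3% of all tested genes. The other 5 genes failed the count filter and were not tested in this fit. Each of the 5 tested genes had at least 13 counts in every library, and for each of them the groups did not overlap. Of all tested genes 38.0% had groups that did not overlap, 19.8% with PARGi above and 18.1% with PARGi below. Sizes ran from a 5.62% change for SPARC to one of 55.0% for MGP. The median log2 fold change (log2FC, PARGi over DMSO) of the 5 was -0.27, against -0.0070 over all tested genes. The number of calls was lower with any single library left out, which also leaves fewer samples. It was 3 without DMSO replicate 1 or PARGi replicate 1, 4 without replicate 2 of either group, and 2 without DMSO replicate 3 or PARGi replicate 3. With all 6 libraries, DESeq2 called 2. Calls also numbered 4 with limma-voom, with upper-quartile scaling, with no filter on low counts and with the replicate number as a block. RUNX2 was the only one of the 5 that passed in every alternative that was run.

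**Figure D2:**
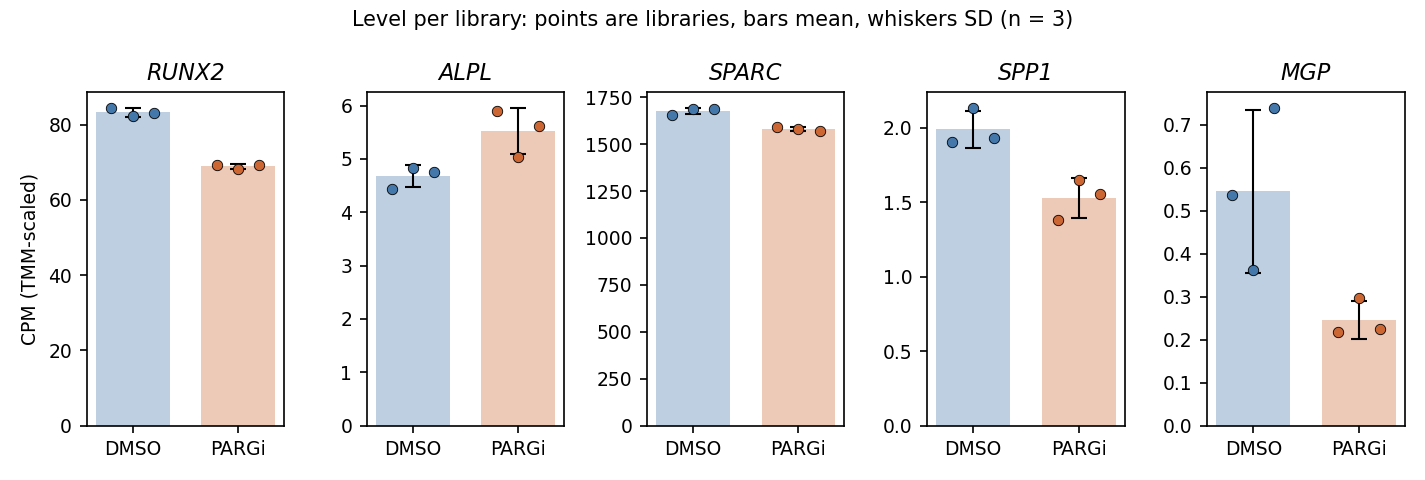
Level of the 5 tested genes in CPM. Points are libraries, bars the mean and whiskers the SD of 3 libraries, and each axis starts at 0. In all 5 panels the DMSO and PARGi libraries do not overlap, and MGP shows the widest relative spread in DMSO.

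RUNX2 (ENSG00000124813.23) is a protein-coding gene of chromosome 6 (45328157 to 45664349, plus strand, GENCODE 29 on GRCh38). Its level was 84.5, 82.2 and 83.1 CPM in DMSO replicates 1 to 3 and 69.2, 68.2 and 69.3 CPM in PARGi replicates 1 to 3. The 3 PARGi libraries lay close to each other and below every DMSO library. RUNX2 fell by 0.27 on the log2 scale (SE 0.027, 95% interval -0.33 to -0.22, adjusted p by edgeR = 4.96e-08). Expressed in percent, RUNX2 changed by -17.2% (95% interval -20.3% to -14.0%). A larger absolute log2FC was found for 20.8% of all tested genes. In bulk RNA, fewer cells that carry a transcript and less of it per cell cannot be told apart.

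The other factors of the group gave too few counts for a comparison. DLX5 (chromosome 7, 97020392 to 97024950, minus strand) had 2, 4 and 5 counts in DMSO and 0, 1 and 4 in PARGi. The groups overlapped (exact two-sided permutation test of the CPM, n = 3 each, p = 0.2, the lowest p this design allows being 0.1). Summed over the group, DLX5 was at 0.0545 CPM in DMSO, with an exact Poisson 95% interval from 0.0272 to 0.0976, and at 0.0233 CPM in PARGi, from 0.00757 to 0.0544. These intervals cover counting error only, and they overlap. SP7 (chromosome 12, 53326575 to 53345315, minus strand) had 0, 1 and 1 counts in DMSO and 0, 0 and 2 in PARGi (exact permutation test, n = 3 each, p = 1). DLX6, the neighbour and paralogue of DLX5, had 2 counts in all 6 libraries together. A difference in DLX5 or SP7 could not be detected with so few counts and this test.

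ALPL encodes tissue-nonspecific alkaline phosphatase, the mineralising enzyme of bone, and was the member that rose. It lies on the plus strand of chromosome 1, from 21509372 to 21578412. Its level was 4.44, 4.83 and 4.75 CPM in DMSO and 5.90, 5.04 and 5.62 CPM in PARGi. The lowest PARGi library lay only a little above the highest DMSO library. Its log2FC was 0.23 (SE 0.081, 95% interval 0.067 to 0.40, adjusted p by edgeR = 0.0364), a change of 17.7%. The call was lost in 8 of 13 alternatives, among them DESeq2 (adjusted p = 0.101), limma-voom (adjusted p = 0.0509) and upper-quartile scaling (adjusted p by edgeR = 0.0608), and the adjusted p ran from 0.0201 to 0.147 over all 13. It was lost without DMSO replicates 1 or 3 and without PARGi replicates 1 or 3, at log2 fold changes from 0.19 to 0.25. With the replicate number as a block, ALPL had an adjusted p of 0.0526.

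SPP1 encodes osteopontin, a secreted acidic glycoprotein that binds mineral and integrins. It lies on the plus strand of chromosome 4, from 87975650 to 87983426. Raw counts were 121, 136 and 144 in DMSO and 83, 122 and 125 in PARGi, which is 1.91, 2.13 and 1.93 CPM against 1.38, 1.65 and 1.55 CPM. All PARGi libraries were below all DMSO libraries. SPP1 fell by 0.37 on the log2 scale (SE 0.13, 95% interval -0.64 to -0.11, adjusted p by edgeR = 0.0379), a change of -22.8%. This call was lost in 8 of 13 alternatives: with DESeq2 (adjusted p = 0.126), with no filter on low counts (adjusted p by edgeR = 0.0562) and with any of the 6 libraries left out, where the log2 fold change ran from -0.43 to -0.31 and the adjusted p from 0.0506 to 0.132.

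SPARC encodes osteonectin, a collagen- and calcium-binding glycoprotein that is abundant in bone but is also made by many other mesenchymal cells. The gene (chromosome 5, 151661096 to 151687165, minus strand) took between 0.157% and 0.170% of all counts in a library. Its level was 1656, 1686 and 1685 CPM in DMSO and 1592, 1583 and 1571 CPM in PARGi. The groups were separate but close. SPARC fell by 0.083 on the log2 scale (SE 0.022, 95% interval -0.13 to -0.038, adjusted p by edgeR = 0.00653), a change of -5.62%. A larger absolute log2FC was found for 59.4% of all tested genes. Without PARGi replicate 3 the adjusted p was 0.0528. Of the exonic length of SPARC, 7.89% overlaps CLMAT3 on the opposite strand, which was at 0.138 CPM in DMSO.

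MGP encodes matrix Gla protein, an inhibitor of calcification, and showed the widest change of the group from a low level. The gene spans 14881181 to 14885926 of chromosome 12, minus strand. Raw counts were 34, 23 and 55 in DMSO and 13, 22 and 18 in PARGi, which is 0.535, 0.361 and 0.739 CPM against 0.217, 0.297 and 0.224 CPM. The DMSO libraries differed among themselves by more than counting error, since the exact Poisson 95% interval of DMSO replicate 2 (0.229 to 0.542 CPM) ended below that of DMSO replicate 3 (0.557 to 0.962 CPM). MGP fell by 1.15 on the log2 scale (SE 0.30, 95% interval -1.77 to -0.53, adjusted p by edgeR = 0.00629). In percent this was -55.0% (95% interval -70.8% to -30.8%). Without DMSO replicate 3, the highest library, the log2 fold change was -0.86 and the adjusted p 0.0679. DESeq2 set MGP aside as too low and gave no adjusted p. On the opposite strand 2.88% of its exonic length overlaps C12orf60, which also fell, by 0.66 on the log2 scale (SE 0.20, adjusted p by edgeR = 0.019), from 0.900 ± 0.114 in DMSO to 0.568 ± 0.0876 CPM in PARGi. The kit keeps the strand, but the strand setting of the counting is not given in the sources used here, so the part of these shared bases in either fall was not tested.

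BGLAP, the osteocalcin gene, lies on the plus strand of chromosome 1, from 156241962 to 156243321. It had 2, 5 and 1 counts in DMSO and 0, 10 and 6 in PARGi, and the groups overlapped (exact permutation test, n = 3 each, p = 0.7). Of its exonic length, 33.4% also belongs to the readthrough gene PMF1-BGLAP on the same strand, which had 0 counts in all 6 libraries. How reads common to both genes were counted is not stated, so the BGLAP count is uncertain and may be too low. PMF1, the upstream partner of that readthrough, went from 9.04 ± 0.355 to 8.14 ± 0.516 CPM without passing the threshold (log2FC -0.15, adjusted p by edgeR = 0.0849). POSTN encodes periostin, a matrix protein of periosteum and ligament, and spans 37562583 to 37598844 of chromosome 13, minus strand. It had 3, 8 and 7 counts in DMSO and 5, 7 and 12 in PARGi, again overlapping (exact permutation test, n = 3 each, p = 0.5). IBSP, on the plus strand of chromosome 4 from 87799581 to 87812435, had no count to compare.

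**Figure D3:**
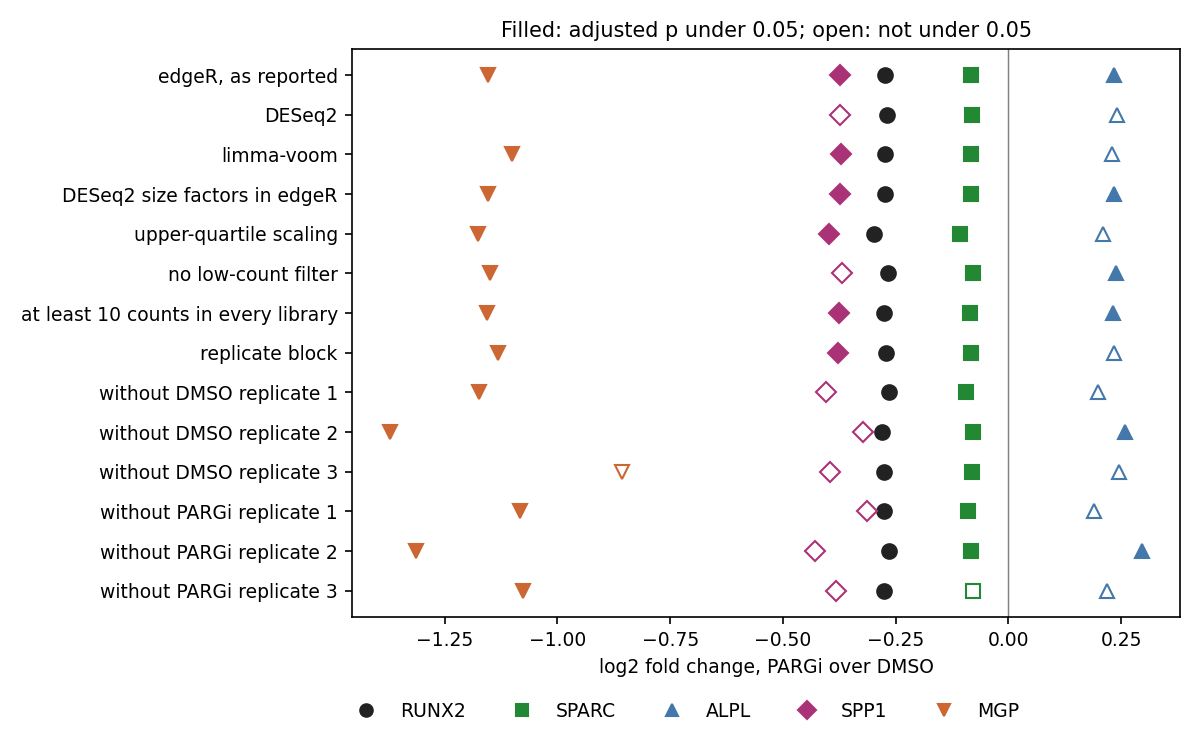
Log2 fold change of the 5 tested genes (x axis) under each processing alternative (rows). Filled symbols have an adjusted p under 0.05 and open symbols do not. RUNX2 is filled throughout, ALPL and SPP1 are open in 8 of 13 alternatives each, and no symbol crosses 0.

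Partners and regulators of the RUNX2 programme were described next, from a list of 19 genes, of which 17 were tested. The list moved in both directions: 4 genes were higher and 5 lower, which is 52.9% of those tested against 24.3% of all genes. This list and those below were chosen with earlier results of these data known. Their shares are therefore descriptions, and enrichment was not tested. Its median log2 fold change was 0.026, and it was below 0 without DMSO replicate 1 (-0.070) or PARGi replicate 1 (-0.017). At baseline the RUNX family was led by RUNX1, which is better known from blood formation, at 14.7 CPM per kb in DMSO, against 10.2 for RUNX2 and 2.27 for RUNX3. CBFB, the common binding partner of the family, was at 36.0 CPM per kb.

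RUNX1 fell as well, from 228.7 ± 7.45 to 212.1 ± 3.55 CPM (log2FC -0.11, SE 0.027, adjusted p by edgeR = 0.00421). RUNX3 and CBFB did not pass the threshold, at log2 fold changes of 0.14 (95% interval from -0.0055 to 0.28) and 0.026 (from -0.034 to 0.086). ZNF521, a zinc finger protein that restrains RUNX2 activity, fell from 9.13 ± 0.362 to 7.27 ± 0.389 CPM (log2FC -0.33). HDAC4, a histone deacetylase that binds and represses RUNX2, fell from 5.44 ± 0.226 to 4.26 ± 0.350 CPM (-0.35). The higher genes included JUND (116.8 ± 4.45 to 132.8 ± 3.92 CPM, log2FC 0.18) and FOSL2 (330.7 ± 15.8 to 366.2 ± 1.77 CPM, 0.15), both AP-1 subunits. MSX1, a homeobox factor of craniofacial bone, rose from 10.6 ± 1.06 to 13.4 ± 0.728 CPM (0.33). The edgeR adjusted p-values of these 5 ran from 5.88e-05 for JUND to 0.00282 for HDAC4, with n = 3 in each group. TWIST1 was nearly absent, with 6 counts in all libraries together.

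Among 27 other genes of bone matrix and mineralisation, 19 were tested, and 5 were higher and 6 lower (57.9% against 24.3% of all genes). The median log2 fold change was 0.0093, and it was -0.015 with upper-quartile scaling and -0.030 without DMSO replicate 1. The chains of type I collagen, the main protein of bone, were very unequal: COL1A1 was at 445.2 CPM per kb in DMSO and COL1A2 at 1.16, a ratio of 383. COL1A1 did not pass the threshold (4371 ± 268 to 4409 ± 53.0 CPM, log2FC 0.012, adjusted p by edgeR = 0.816), while COL1A2 fell from 13.0 ± 1.38 to 7.41 ± 0.685 CPM (log2FC -0.80, SE 0.074, adjusted p by edgeR = 1.6e-08).

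BGN, which encodes the small proteoglycan biglycan, fell from 5.67 ± 0.434 to 3.05 ± 0.012 CPM (log2FC -0.90, SE 0.087). PHEX, an endopeptidase of osteoblasts and osteocytes needed for normal mineralisation, fell from 2.89 ± 0.419 to 1.78 ± 0.111 CPM (-0.70, SE 0.13). In the other direction, SLC20A1, a sodium-phosphate cotransporter, rose from 468.5 ± 8.03 to 585.1 ± 20.3 CPM (0.32, SE 0.026). LUM, which encodes the proteoglycan lumican, rose from 6.69 ± 0.312 to 8.44 ± 0.142 CPM (0.33, SE 0.064). CRTAP, a component of the collagen prolyl 3-hydroxylation complex, rose from 123.8 ± 1.46 to 133.9 ± 1.43 CPM (0.11, SE 0.025). All of these had an edgeR adjusted p of at most 0.00169, with n = 3 in each group, and none lost its call in any alternative. CRTAP overlaps a gene on the opposite strand over 4.56% of its exonic length. Of the mineralisation genes that work beside ALPL, ENPP1, which makes pyrophosphate, was at 16.1 ± 1.09 and 16.2 ± 0.476 CPM and ANKH, which exports it, at 65.0 ± 1.53 and 63.5 ± 0.988 CPM in DMSO and PARGi, and neither passed the threshold. IFITM5 and OMD, both made by osteoblasts, had 0 counts in all 6 libraries.

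**Figure D4:**
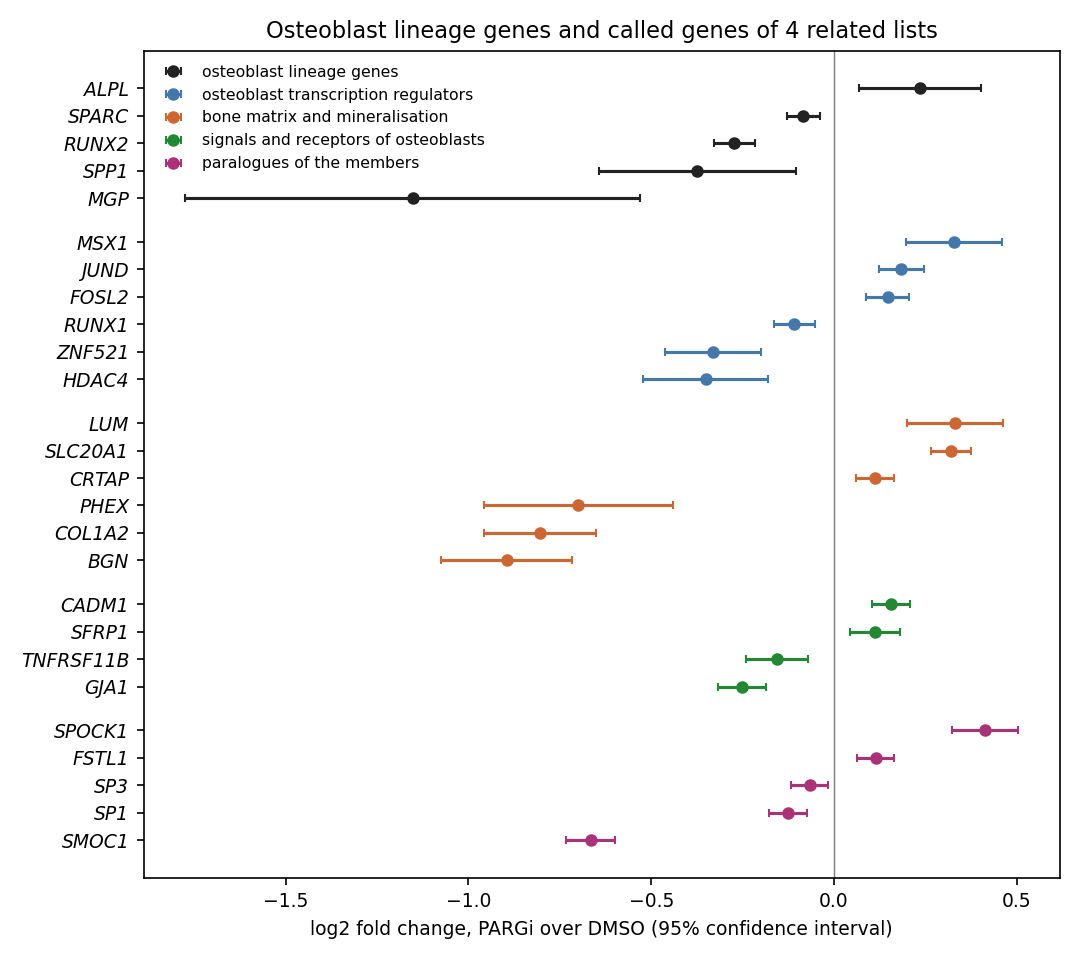
Log2 fold change of PARGi over DMSO with its 95% confidence interval for the 5 tested osteoblast lineage genes and for the called genes of 4 related lists with the smallest p-values, up to 3 in each direction per list. Since called genes of each direction were picked, those of each of the 4 lists are drawn on both sides of 0. The regulators run from HDAC4 at -0.35 to MSX1 at 0.33 and the matrix genes from BGN at -0.90 to LUM at 0.33.

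Signals and receptors of osteoblasts were called at a share near that of all genes. Of 20 genes, 18 were tested, and 2 were higher and 3 lower (27.8% against 24.3% of all genes), at a median of -0.046. With upper-quartile scaling 1 was higher and 5 were lower. GJA1, which encodes the gap junction protein connexin 43 of osteoblasts and osteocytes, fell from 99.3 ± 5.09 to 83.3 ± 1.26 CPM (log2FC -0.25, SE 0.032, adjusted p by edgeR = 2.21e-06). TNFRSF11B, which encodes the decoy receptor osteoprotegerin, fell from 34.9 ± 1.67 to 31.3 ± 1.45 CPM (-0.16, adjusted p by edgeR = 0.00653), a call lost without PARGi replicate 3 (-0.12, adjusted p = 0.069). CADM1, an adhesion molecule, rose from 97.5 ± 0.287 to 108.6 ± 1.10 CPM (0.16). SFRP1, a secreted Wnt antagonist, rose from 41.7 ± 1.15 to 45.0 ± 0.667 CPM (0.11, adjusted p by edgeR = 0.014), a call lost with upper-quartile scaling (0.088, adjusted p = 0.0592) and without DMSO replicate 3 (0.091, adjusted p = 0.0557) or PARGi replicate 2 (0.10, adjusted p = 0.0693). TNFSF11, which encodes the osteoclast factor RANKL, had 1 count in all libraries together.

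Relatives of the 10 genes by sequence were taken from a list of paralogues. Of 17 listed, 12 were tested, and 2 were higher and 3 lower (41.7% against 24.3% of all genes), at a median of -0.054. In the SPARC family, SMOC1 fell from 71.8 ± 1.08 to 45.4 ± 1.99 CPM (log2FC -0.66, SE 0.032, adjusted p by edgeR = 3.6e-13). SPOCK1 rose from 17.0 ± 0.486 to 22.6 ± 0.676 CPM (0.41, SE 0.043) and FSTL1 from 566.2 ± 9.17 to 612.7 ± 11.5 CPM (0.11, SE 0.024). SPOCK2 (log2FC -0.042), SPOCK3 (0.17) and SMOC2 (-0.16) did not pass the threshold, and SPARCL1 had 2 counts in all libraries together. The called relatives of SPARC thus moved in both directions, while SPARC itself fell by 0.083 on the log2 scale. Of the relatives of SP7, SP1 fell from 140.8 ± 1.36 to 128.9 ± 1.65 CPM (-0.13) and SP3 from 166.8 ± 0.271 to 159.3 ± 0.278 CPM (-0.066, adjusted p by edgeR = 0.0473), the latter losing its call in 7 of 13 alternatives. The alkaline phosphatase paralogue ALPP was lower than ALPL, at 0.925 ± 0.0547 CPM in the DMSO and 0.953 ± 0.217 CPM in the PARGi libraries, and was not called (adjusted p by edgeR = 0.855).

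Markers of other lineages were read beside the group. As background, 24.3% of all tested genes were called and 38.0% had groups that did not overlap, and each marker list is short. Of 7 chondrocyte markers, 5 were tested, 1 higher and 1 lower, and their summed level was 266.4 to 287.1 CPM in DMSO and 309.7 to 320.7 CPM in PARGi. Nearly all of it was SOX9, which rose from 260.3 ± 10.6 to 300.1 ± 6.38 CPM (log2FC 0.20, adjusted p by edgeR = 7.55e-06), and ACAN, which encodes the cartilage proteoglycan aggrecan, fell from 4.36 ± 0.210 to 2.96 ± 0.234 CPM (log2FC -0.56, adjusted p by edgeR = 7.8e-05). The defining cartilage gene COL2A1 was near 0 in both groups (0.155 ± 0.0843 and 0.160 ± 0.0376 CPM). Of 6 epithelial markers, all tested, 3 were higher and 1 lower, with a sum of 407.0 to 414.8 CPM in DMSO and 477.9 to 486.3 CPM in PARGi, mostly KRT8 and KRT18, which can share reads with each other's overlapping exons and with their many pseudogenes. KRT14, a basal keratin, fell from 22.4 ± 0.761 to 14.3 ± 1.77 CPM (log2FC -0.66, adjusted p by edgeR = 1.33e-08). CDH1 rose from a low level, from 0.718 ± 0.0247 to 1.14 ± 0.208 CPM (log2FC 0.67, adjusted p by edgeR = 0.0104). Of 6 muscle markers, 2 were tested and 1, DES, was higher (7.66 ± 0.223 to 12.2 ± 0.464 CPM), with a sum of 7.75 to 8.44 CPM in DMSO and 12.1 to 13.0 CPM in PARGi, and MYF5 was at 0 throughout. Of 7 adipocyte markers, 4 were tested and 1, PPARG, was higher, with a sum of 30.2 to 32.4 CPM in DMSO and 34.6 to 34.8 CPM in PARGi. Of 7 osteoclast and leukocyte markers, 4 were tested and 1, ITGB3, of whose exonic length 51.6% overlaps another gene on its strand, was lower, with a sum of 29.5 to 30.7 CPM in DMSO and 23.4 to 25.0 CPM in PARGi. Of 6 osteocyte markers, 3 were tested, with PDPN higher and PHEX lower, and the sum was 41.4 to 43.0 CPM in DMSO and 42.6 to 45.4 CPM in PARGi. The remaining markers with a mean of at least 1 CPM, namely MATN3, LPL, CEBPA, PTPRC, CTSK, EPCAM and KRT5, did not pass the threshold. Apart from the osteocyte markers, the summed levels of these lists did not overlap between the groups, and their part in the changes of the osteoblast genes was not tested.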

How the data were processed

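Total RNA of U2OS cells was made into libraries with a strand-keeping total RNA kit, per the labels' protocols. Each deposited file holds the unnormalised counts of 1 library, as whole numbers by gene. The submitters' processing notes name cutadapt 1.18, STAR 2.7.3a, SAMtools 1.9, DESeq2 3.12, deepTools and the build hg38. The annotation release and strand setting of the counting are not given in the sources used here. Of 60708 identifiers, 60507 matched a symbol and 58396 were found in GENCODE 29, whose positions and exon lengths are used. Every row names a gene.

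Groups and replicate numbers came from the sample titles. The test was edgeR 4.0.16 (R 4.3.3): filterByExpr, TMM, glmQLFit and two-sided glmQLFTest on treatment alone, over 6 libraries, with Benjamini-Hochberg adjustment over all genes tested. Genes that failed the filter got an exact permutation test of CPM, and intervals of single counts are exact Poisson. Alternatives were DESeq2 1.42.0, limma-voom (limma 3.58.1), other scalings and filters, a replicate block, another gene length and leaving out each library. All 10 genes are named, with up to 3 called genes per direction and related list (mean of at least 1 CPM, smallest p), lineage markers with a mean of at least 1 CPM, genes that overlap exons of a member on its strand, and neighbours in a family cluster. COL1A1, RUNX3, CBFB, TWIST1, ENPP1, ANKH, PHOSPHO1, IFITM5, OMD, TNFSF11, ALPP, SPOCK2, SPOCK3, SMOC2, SPARCL1, DLX1, DLX3, COL2A1, MYF5, CDH1, C12orf60, CLMAT3, PMF1 and SUPT3H fall outside that rule and were chosen after their values were seen. The genes and lists were chosen with earlier results of these data known. On simulated counts for this comparison (20409 genes, 50 changed at each size), the script recovered 54% of genes changed by 0.3 on the log2 scale. It recovered 90% of those changed by 1.5, with 9 calls among unchanged genes. Far fewer genes were changed there than were called in the data, so these shares may not carry over.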

Additional observations from a re-analysis of the deposited data

How the results depend on the processing

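Of 26 genes followed through 13 alternatives, 19 kept their direction and their side of the threshold in every alternative that tested them, and no gene changed direction. Apart from the 5 tested osteoblast lineage genes, the 26 were picked as called genes with the smallest p, a choice that favours stable calls. Of those 5, only RUNX2 kept its call throughout. RUNX2 ran from -0.30 to -0.26, with a largest adjusted p of 6.22e-06. The number of called osteoblast lineage genes was 5, and 2 with DESeq2, where MGP got no adjusted p. Leaving out single libraries gave 2 to 4 calls, and the smaller number of samples is part of each such setting. With the replicate number as a block, 4 of the 5 genes were called (ALPL was lost) and 4553 genes in all, against 4951. No pairing by replicate number was seen: deviations from the group means correlated at -0.0250 to 0.00158 for equal numbers, and the libraries did not each correlate best with their own number. With so few libraries this cannot exclude a shared day or batch, and the titles do not say what the numbers mark. The counts of called regulators, matrix genes, signals and paralogues stayed within 1.5 times their value in every alternative. The order of baseline levels was the same for all 10 genes with the length of the longest transcript, but folds between genes depend on the length used. With that length COL1A1 was at 649.8 and COL1A2 at 2.16 CPM per kb in DMSO, and RUNX1 at 31.4 and RUNX2 at 14.2. Very low counts limit DLX5, SP7, BGLAP, POSTN and IBSP, and the permutation test cannot go below p = 0.1 at any depth. With no filter on low counts, edgeR called neither DLX5 (log2FC -1.19, adjusted p = 0.573) nor SP7 (-0.092, adjusted p = 0.990). BGLAP (0.84, adjusted p = 0.653) and POSTN (0.31, adjusted p = 0.802) were not called there either.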

Other observations

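The chromosome 4 cluster of acidic bone and tooth matrix genes was near 0 apart from SPP1. DSPP had 17 counts, DMP1 8, MEPE 3 and IBSP 0 in the 6 libraries together, against 731 for SPP1. The homeobox pair on chromosome 7 was equally low, with 16 counts for DLX5 and 2 for DLX6, although the related DLX3 and DLX1 were at 0.645 ± 0.0707 and 1.17 ± 0.125 CPM in DMSO (SD, n = 3 each). SUPT3H, which overlaps the RUNX2 locus on the opposite strand without exons in common, went from 1.65 ± 0.195 to 1.78 ± 0.177 CPM without passing the threshold (log2FC 0.11, adjusted p by edgeR = 0.616), while RUNX2 fell.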
